A study of Mus musculus with 6 samples.

Results

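The genes described here encode the core of the Notch pathway in the mouse colon and the transcription factor that it restrains: the receptors Notch1, Notch2 and Notch3, the ligands Dll1, Dll4, Jag1 and Jag2, the target genes Hes1 and Nrarp, and Atoh1. They were taken by name, as every probe set that the array's annotation assigns to one of these 10 genes alone. This gave 18 of the 45101 probe sets in the table. Of the 10 genes, 7 were read by more than 1 probe set.

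Notch signalling passes between touching cells. A Delta or Jagged ligand on one cell binds a receptor on its neighbour, an ADAM protease and then gamma-secretase cut the receptor, and the freed intracellular domain joins RBPJ and Mastermind on target genes such as Hes1. In the gut epithelium HES1 represses Atoh1: cells that receive the signal remain progenitors or become absorptive, while cells that escape it express Atoh1 and Delta ligands and become secretory. In other cells of the gut wall the same receptors serve the vessels (Notch1, Dll4), vascular muscle and pericytes (Notch3) and lymphocytes (Notch1, Notch2).

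Total RNA of the colon was measured on 6 one-colour Affymetrix arrays, 3 of control mice and 3 of HDAC2 KO mice, all on a background mixed from CD-1, 129 and C57BL/6. In HDAC2 KO mice a floxed Hdac2 was deleted by Cre recombinase under the villin promoter, which acts in intestinal epithelial cells, so the other cells of the colon keep the gene. The animals were untreated and on a normal diet. Their age and sex, and whether control mice carried floxed alleles, are not given in the sources used here. The sources of both groups are labelled as epithelium of 1 numbered mouse, and the description of the second group names HDAC1/2, whereas its title and genotype name HDAC2 alone. The values are log2 signals made with RMA, on which a difference of 1 is a doubling, and RMA makes differences between dim signals look smaller than they are. P-values measure the spread between these 3 samples per group.

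The targeted gene was lower in the group labelled as its knockout. Hdac2 read 10.40, 10.37 and 10.43 in control and 10.21, 10.12 and 10.24 in HDAC2 KO (1.16-fold lower, limma adjusted p = 0.00893). In which cells Hdac2 fell was not measured. The suffix of its probe set marks one that may bind more than 1 transcript. With such probe sets left out, the gene's adjusted p was 0.0957, and over all probe sets it was 0.0768, so Hdac2 was then not called. Whether the probe set covers the deleted exons was not analysed here. Arrays correlated across the genes tested with r between 0.9964 and 0.9989 within a group and between 0.9907 and 0.9923 across groups. All 12 epithelial markers listed for the check exceeded the signal filter explained below, and so did all 11 of smooth muscle and pericytes, so RNA of the muscle wall was present too. Every array carried both Xist (11.52 to 12.04) and the Y-linked Eif2s3y (7.48 to 8.32). Xist was lower and Eif2s3y higher on every HDAC2 KO array than on any control array (limma adjusted p = 4.46e-05 and 0.0036). Sex-linked signal thus ran with the groups. The part of sex in the results below was not tested, and on these arrays it cannot be told apart from genotype. The labels name 1 mouse per array. Whether an array held RNA of more than 1 mouse was not tested, and the p-values would then measure the spread between pools.

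Signals of 2 of the receptors, 1 of the ligands and Atoh1 were modestly lower in HDAC2 KO. For the main comparison, the probe set of highest mean stood for its gene, and the 10916 genes at or above the 40th percentile of mean signal (6.66) were tested with limma, a linear model that shares variance between genes. A gene was called at a Benjamini-Hochberg adjusted p under 0.05 over all of them. Of the 10 genes, 8 were tested, and Notch3 and Dll4 lay below the signal filter. Notch1, Notch2, Dll1 and Atoh1 fell, 0 rose, and Jag1, Jag2, Hes1 and Nrarp were not called. Over all 10916 genes, 17.9% were called in either direction and 8.2% were called lower. The median difference was -0.17 over the 8 genes and 0.0032 over all genes tested. In a colon preparation, fewer cells of a type and less RNA per cell cannot be told apart.

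These calls depended on which probe sets entered the test. With 1 probe set per gene but no signal filter, Notch1, Notch2 and Atoh1 were called and Dll1 was not. When each of the 45037 probe sets entered the fit by itself, without a filter, limma called 0 of the 18 probe sets, against 3.8% of all probe sets, and 7 of the 18 had an unadjusted p under 0.05, against 16.4% of all. The smallest adjusted p in that fit were 0.0572 for Notch2, 0.0655 for Atoh1 and 0.0667 for Notch1. With a filter at the 40th percentile of probe sets 5 were called, all lower: both of Notch1, 1 of Notch2, and those of Dll1 and Atoh1, against 4.74% of probe sets called lower in that fit. The groups did not overlap for 8 of the 18, 7 lower and 1 higher, against 23.2% of all probe sets.

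**Figure D1:**
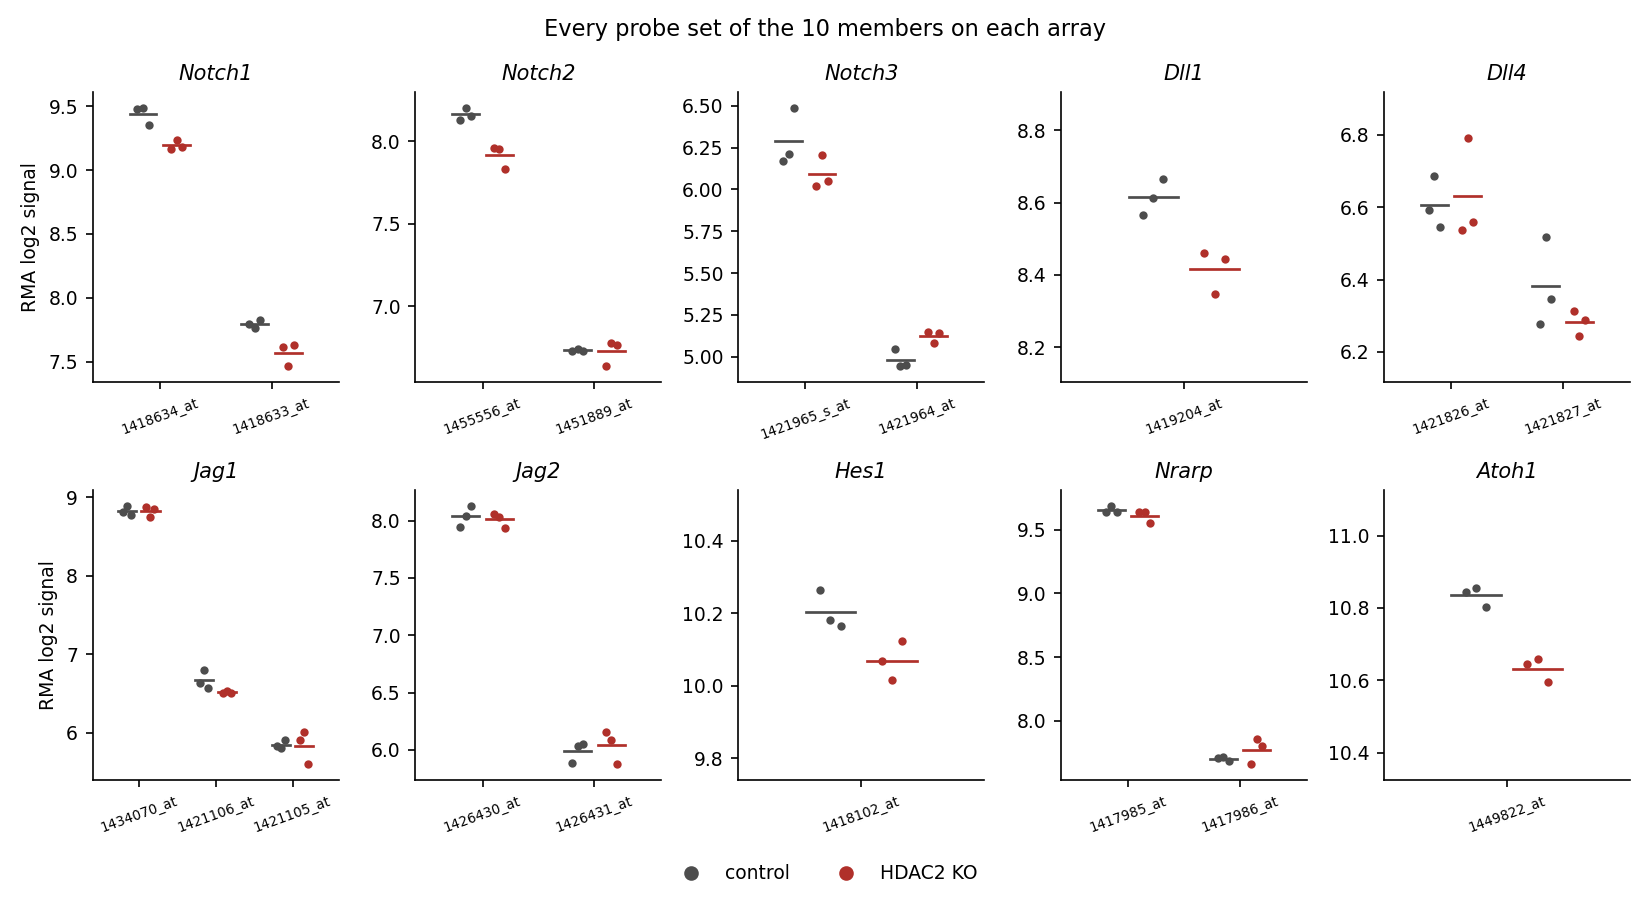
RMA log2 signal of each of the 18 probe sets on the 6 arrays, by gene; each panel has its own vertical scale, points are arrays (grey control, red HDAC2 KO) and bars are group means of 3. Both probe sets of Notch1, the brighter one of Notch2, 1421106_at of Jag1, and those of Dll1, Hes1 and Atoh1 lie lower on every HDAC2 KO array than on any control array. Probe set 1421964_at of Notch3 lies higher on every HDAC2 KO array.

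Notch1 is the main receptor of crypt progenitors. Its brighter probe set, 1418634_at, read 9.48, 9.49 and 9.35 in control and 9.17, 9.24 and 9.18 in HDAC2 KO. All HDAC2 KO arrays lay below all control arrays. The difference was -0.24 (SE 0.046, 95% interval -0.35 to -0.14), or 1.18-fold lower (limma adjusted p = 0.00893). The second probe set, 1418633_at, read 7.79, 7.76 and 7.82 against 7.62, 7.46 and 7.63, again without overlap. Its difference of -0.22 (SE 0.059, limma adjusted p = 0.106 over all probe sets) was close to that of the first, and the difference between the 2 probe sets was -0.021 (exact permutation p = 1, 2-sided). With 1 value per gene, Notch1 was called in 15 of 15 alternative settings that keep the threshold at 0.05. Its adjusted p then lay between 0.000395 and 0.0446.

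Notch2 acts beside Notch1 in the crypt, and its probe sets disagreed. Probe set 1455556_at read 8.13, 8.21 and 8.16 in control and 7.96, 7.96 and 7.83 in HDAC2 KO. The groups were separate, and the difference was -0.25 (SE 0.045, 95% interval -0.35 to -0.15), 1.19-fold lower (limma adjusted p = 0.00715). The dimmer 1451889_at read 6.73, 6.74 and 6.73 in control and 6.64, 6.78 and 6.77 in HDAC2 KO. Here the HDAC2 KO arrays lay on both sides of the controls, with a difference of -0.0061 (SE 0.054, limma adjusted p = 0.977 over all probe sets). The 2 probe sets differed by -0.24 in their response (exact permutation p = 0.1, the smallest that 3 against 3 arrays allow). Averaging them brought the difference of Notch2 to -0.13 (limma adjusted p = 0.0428).

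Notch3, the receptor of vascular muscle and pericytes, lay below the signal filter in both of its probe sets, so its values describe dim signals only. Probe set 1421965_s_at, whose suffix marks one that can bind several transcripts, read 6.17, 6.21 and 6.49 in control and 6.02, 6.21 and 6.05 in HDAC2 KO. Control replicate 3 stood above the rest, and the groups overlapped (difference -0.20, SE 0.095, limma adjusted p = 0.374 over all probe sets). Probe set 1421964_at read 5.05, 4.94 and 4.95 in control and 5.15, 5.08 and 5.14 in HDAC2 KO. This was the 1 probe set of the 18 that lay higher on every HDAC2 KO array (difference 0.14, SE 0.052, limma adjusted p = 0.219 over all probe sets). The 2 probe sets thus pointed in opposite directions and neither was called.

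Dll1 is a Delta ligand of secretory precursors. Its single probe set read 8.57, 8.61 and 8.66 in control and 8.46, 8.35 and 8.44 in HDAC2 KO. The groups did not overlap. The difference was -0.20 (SE 0.044, 95% interval -0.30 to -0.096), 1.15-fold lower (limma adjusted p = 0.018). Leaving out control replicate 2 or control replicate 3 raised the adjusted p to 0.0587 or 0.0639, and dropping the signal filter raised it to 0.0581, so that Dll1 was no longer called. Over 15 alternatives the adjusted p lay between 0.0102 and 0.0639.

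Dll4, a Delta ligand of both crypt cells and sprouting vessels, lay just under the filter. Probe set 1421826_at read 6.59, 6.69 and 6.54 in control and 6.54, 6.79 and 6.56 in HDAC2 KO, with full overlap and a difference of 0.022 (SE 0.080, limma adjusted p = 0.934 over all probe sets). Probe set 1421827_at read 6.28, 6.52 and 6.35 against 6.31, 6.24 and 6.29. Control replicate 2 was highest in that probe set, and the difference was -0.099 (SE 0.070, limma adjusted p = 0.562 over all probe sets).

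The Jagged ligands were not called. Jag1, a ligand of epithelium, vessels and stroma, read 8.82, 8.89 and 8.77 in control and 8.88, 8.75 and 8.86 in HDAC2 KO on its brightest probe set, 1434070_at. The groups overlapped, and the difference of 0.0041 had a 95% interval from -0.11 to 0.11 (limma adjusted p = 0.966). Its other probe sets were dimmer: 1421106_at read 6.63, 6.80 and 6.57 in control and 6.51, 6.53 and 6.51 in HDAC2 KO, which did not overlap (difference -0.15, SE 0.066, limma adjusted p = 0.321 over all probe sets). The third, 1421105_at, differed by -0.0062 (SE 0.10) with overlapping groups. The responses of 1434070_at and 1421106_at differed by 0.15 (exact permutation p = 0.1, the smallest possible here).

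Jag2, the other Jagged ligand, read 7.94, 8.04 and 8.13 in control and 8.06, 8.03 and 7.94 in HDAC2 KO on probe set 1426430_at. The groups overlapped, and the difference was -0.026 (95% interval -0.15 to 0.10, limma adjusted p = 0.79). The dimmer 1426431_at gave 0.049 (SE 0.085). For both Jagged genes, the interval of the probe set that stands for the gene leaves out a fall as large as the -0.24 of Notch1.

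Hes1, the repressor through which Notch holds Atoh1 down, was lower by less. It read 10.26, 10.18 and 10.16 in control and 10.07, 10.02 and 10.12 in HDAC2 KO. The groups did not overlap, though HDAC2 KO replicate 3 lay close to control replicate 3. The difference was -0.13 (SE 0.043, 95% interval -0.23 to -0.035), 1.10-fold lower, and it was not called (limma adjusted p = 0.0688). Among the 15 alternatives that keep the threshold at 0.05, it was called in 3: when arrays were weighted (adjusted p = 0.00989), when variances were fitted robustly along an intensity trend (0.032) and when the arrays were quantile-normalized again (0.0367). The highest adjusted p over the alternatives was 0.231.

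Nrarp, a Notch target whose product binds the receptor's intracellular domain and dampens the signal, read 9.64, 9.69 and 9.64 in control and 9.64, 9.64 and 9.55 in HDAC2 KO on probe set 1417985_at. The groups overlapped, with a difference of -0.046 (95% interval -0.13 to 0.041, limma adjusted p = 0.455). On 1417986_at it read 7.71, 7.72 and 7.69 against 7.66, 7.86 and 7.80, a difference of 0.068 (SE 0.061, limma adjusted p = 0.668 over all probe sets). The 2 probe sets thus had differences of opposite sign, neither of them called.

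Atoh1, which commits epithelial precursors to the secretory lineages, had the smallest p of the 8 genes. Its single probe set read 10.85, 10.85 and 10.80 in control and 10.64, 10.66 and 10.59 in HDAC2 KO. The lowest control array stood above the highest HDAC2 KO array by more than the range within either group. The difference was -0.20 (SE 0.035, 95% interval -0.28 to -0.12), 1.15-fold lower (limma adjusted p = 0.0057). With 1 value per gene, Atoh1 was called in 15 of 15 alternatives with adjusted p up to 0.0328. Hes1 and Atoh1, repressor and repressed gene in the textbook circuit, thus both had lower signal in HDAC2 KO, and of these the difference of Atoh1 alone was called.

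**Figure D2:**
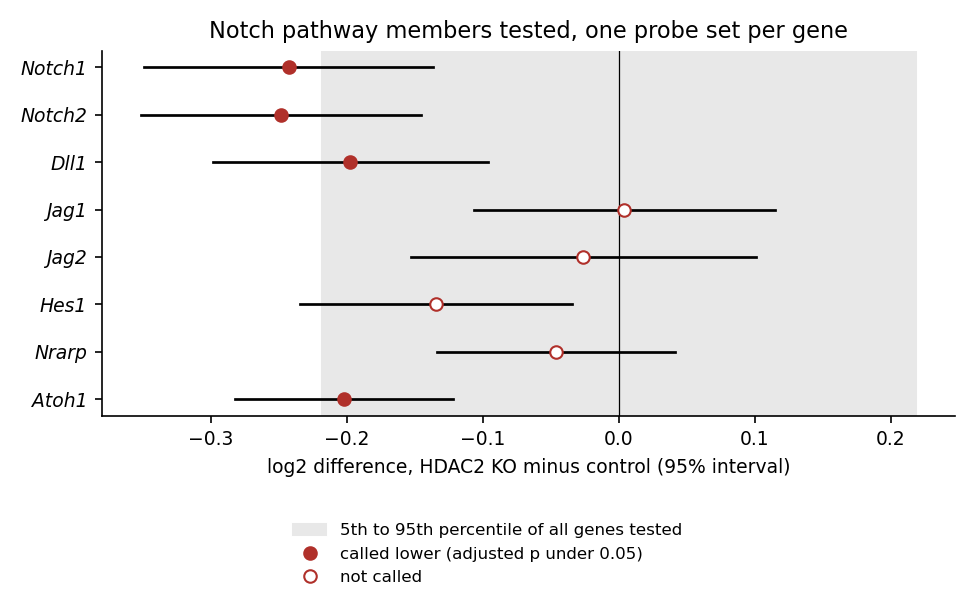
Log2 difference, HDAC2 KO minus control, with its 95% interval for the 8 genes tested (filled, called lower; open, not called); the grey band spans the 5th to 95th percentile of differences over all 10916 genes tested, -0.22 to 0.22. Notch1 and Notch2 lie beyond the lower edge of the band, Dll1 and Atoh1 inside it near the edge, and Jag1, Jag2 and Nrarp have intervals that include 0.

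The 4 genes that were called lower are shown with the 250 bases before their annotated transcription start. Whether they share a regulator was not tested. The sequences are from RefSeq on GRCm38.p6, printed in the direction of the gene, and for Dll1 the start farther upstream of 2 was taken. A RefSeq promoter entry matched 9 of the 10 genes, all but Hes1. Sites of 3 kinds were searched on both strands: the RBPJ core GTGGGAA, the N-box CACNAG to which HES proteins bind, and an E-box pattern, CAGNTG. This E-box pattern is broader than the sites of ATOH1, so a match to it does not mark an ATOH1 site. Capitals mark matches.
Notch1, chr2:26503823-26504072, minus strand: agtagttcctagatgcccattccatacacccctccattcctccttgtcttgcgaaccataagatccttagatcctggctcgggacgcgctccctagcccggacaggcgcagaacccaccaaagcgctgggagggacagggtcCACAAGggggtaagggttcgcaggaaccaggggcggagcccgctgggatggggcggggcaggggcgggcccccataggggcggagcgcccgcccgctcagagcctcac
Notch2, chr3:98013288-98013537, plus strand: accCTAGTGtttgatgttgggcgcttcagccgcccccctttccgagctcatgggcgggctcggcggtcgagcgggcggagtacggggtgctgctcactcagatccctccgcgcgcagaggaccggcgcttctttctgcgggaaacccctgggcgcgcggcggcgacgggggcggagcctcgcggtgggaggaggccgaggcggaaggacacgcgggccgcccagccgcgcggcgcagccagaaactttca
Dll1, chr17:15376933-15377182, minus strand: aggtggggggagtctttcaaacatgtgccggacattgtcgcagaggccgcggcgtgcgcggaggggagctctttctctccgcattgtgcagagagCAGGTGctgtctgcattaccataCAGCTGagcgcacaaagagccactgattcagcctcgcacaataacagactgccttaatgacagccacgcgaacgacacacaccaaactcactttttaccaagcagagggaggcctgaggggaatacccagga
Atoh1, chr6:64728875-64729124, plus strand: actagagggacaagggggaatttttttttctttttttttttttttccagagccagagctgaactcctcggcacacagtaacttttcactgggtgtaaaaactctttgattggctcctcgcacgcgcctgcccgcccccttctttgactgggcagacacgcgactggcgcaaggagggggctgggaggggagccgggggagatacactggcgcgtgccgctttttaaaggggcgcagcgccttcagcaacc

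Notch1 and Notch2 each held 1 N-box match, and Atoh1 held a match to none of these letters. The printed window of Dll1 held 2 E-box matches, and the window at its other annotated start held 0. Over all 10 windows of the 9 genes, 5 held an N-box match, 2 an E-box match and 0 an RBPJ core match. Of 32851 windows of the same length in the table, 36.7% held an N-box match, 44.8% an E-box match and 5.42% an RBPJ core match. A match describes these letters and is not a measured binding site.

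The rest of the pathway moved in both directions. Of 92 further genes listed by role, 87 were on the array and 73 were tested. Among those tested, 8 rose, 7 fell and 58 were not called, with a median of -0.0015. Their share of calls was near the 17.9% of all genes tested, which also stands beside the counts per role below. Hdac2, the targeted gene, is counted among the 7 that fell, and its deletion is what defines the HDAC2 KO group. Of the 15 called genes, 5 (Dlk1, Aph1b, Hdac2, Id1 and Foxa2) were called whichever single array was left out, and 10 were not called without at least 1, with adjusted p up to 0.138. The count fell to 6 when control replicate 1 was left out, and to 8 when either HDAC2 KO replicate 1 or HDAC2 KO replicate 3 was.

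Among other ligands and receptors, 2 of 4 tested rose and 0 fell. Dlk1, an imprinted Delta-like protein that lacks the domain canonical ligands use, read 7.48, 7.49 and 7.51 in control and 7.84, 7.82 and 7.91 in HDAC2 KO, a difference of 0.36 (SE 0.036, limma adjusted p = 0.000387). That call was lost when its probe sets were averaged (adjusted p = 0.198). Cntn1, a neural adhesion protein described as a Notch ligand, rose by 0.28 (limma adjusted p = 0.0264; with a replicate block, adjusted p = 0.0613). Notch4, the endothelial receptor, and Dll3 lay below the signal filter.

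Of 8 genes tested for receptor cleavage, 2 fell and 0 rose. Aph1b, a gamma-secretase subunit, read 8.79, 8.76 and 8.69 in control and 8.48, 8.47 and 8.50 in HDAC2 KO, 1.20-fold lower (difference -0.26, limma adjusted p = 0.00239). Adam17, a sheddase, fell by 0.17 (limma adjusted p = 0.027). The main Notch sheddase Adam10 differed by 0.012 and the gamma-secretase subunit Ncstn by -0.12 (limma adjusted p = 0.914 and 0.0538). Among 6 genes of Notch glycosylation, Pofut1, which adds the O-fucose that ligand binding needs, fell by 0.14 and Eogt, an O-GlcNAc transferase, rose by 0.17 (limma adjusted p = 0.0179 and 0.0141). When probe sets of a gene were averaged, neither of these last 2 calls held (adjusted p = 0.262 and 0.542).

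Of 16 genes of ligand endocytosis and receptor turnover, 1 rose and 0 fell. Fbxw7, part of the ubiquitin ligase that degrades the active Notch fragment, rose by 0.11 (limma adjusted p = 0.0417; with a replicate block, adjusted p = 0.0612). In the nuclear complex, Rbpj differed by 0.065 and Maml1 by -0.036 (limma adjusted p = 0.321 and 0.57). The 2 genes called among 10 there were the deacetylases themselves, Hdac2 lower and Hdac1 higher by 0.15 (limma adjusted p = 0.0321). Hdac1 was called in 8 of 15 such alternatives. The corepressor gene Spen differed by -0.21 (SE 0.077, limma adjusted p = 0.107).

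Among 8 genes tested from a list of other proposed targets and HES relatives, 1 rose and 1 fell. Whether each of them answers to Notch in the colon was not tested. Myc, a growth regulator that Notch and Wnt both act on, read 9.46, 9.38 and 9.40 in control and 9.26, 9.10 and 9.21 in HDAC2 KO (difference -0.23, limma adjusted p = 0.0154). Without control replicate 1 the adjusted p of Myc was 0.0685. Id1, an inhibitor of bHLH factors, read 12.03, 12.01 and 11.97 in control and 12.21, 12.26 and 12.16 in HDAC2 KO (difference 0.20, limma adjusted p = 0.00884). Hes6 differed by -0.12 (limma adjusted p = 0.0762) and Hes5 by -0.022 (0.872), and Hes2, Hes3, Hes7, Hey1, Hey2 and Heyl lay below the signal filter.

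Of 21 genes downstream of Atoh1 that were tested, 2 rose, 2 fell and 17 were not called, with a median of 0.0023. That share of calls is near the 17.9% of all genes tested. Foxa2, a factor of goblet and endocrine cells, read 10.23, 10.19 and 10.17 in control and 9.98, 9.97 and 9.91 in HDAC2 KO (difference -0.25, limma adjusted p = 0.00261). Neurod1, an enteroendocrine factor, fell by 0.28 (limma adjusted p = 0.0381) and was called in 8 of 14 alternatives that keep the threshold at 0.05. Spdef, which drives goblet cell maturation, rose by 0.16 (limma adjusted p = 0.0225), and Creb3l4 rose by 0.15 (limma adjusted p = 0.0461; with a replicate block, adjusted p = 0.0594). The goblet cell products Muc2, Tff3 and Clca1 differed by 0.087, -0.0084 and -0.038 (limma adjusted p = 0.109, 0.893 and 0.451), and Gfi1, a direct target of ATOH1, by 0.20 (limma adjusted p = 0.0533).

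**Figure D3:**
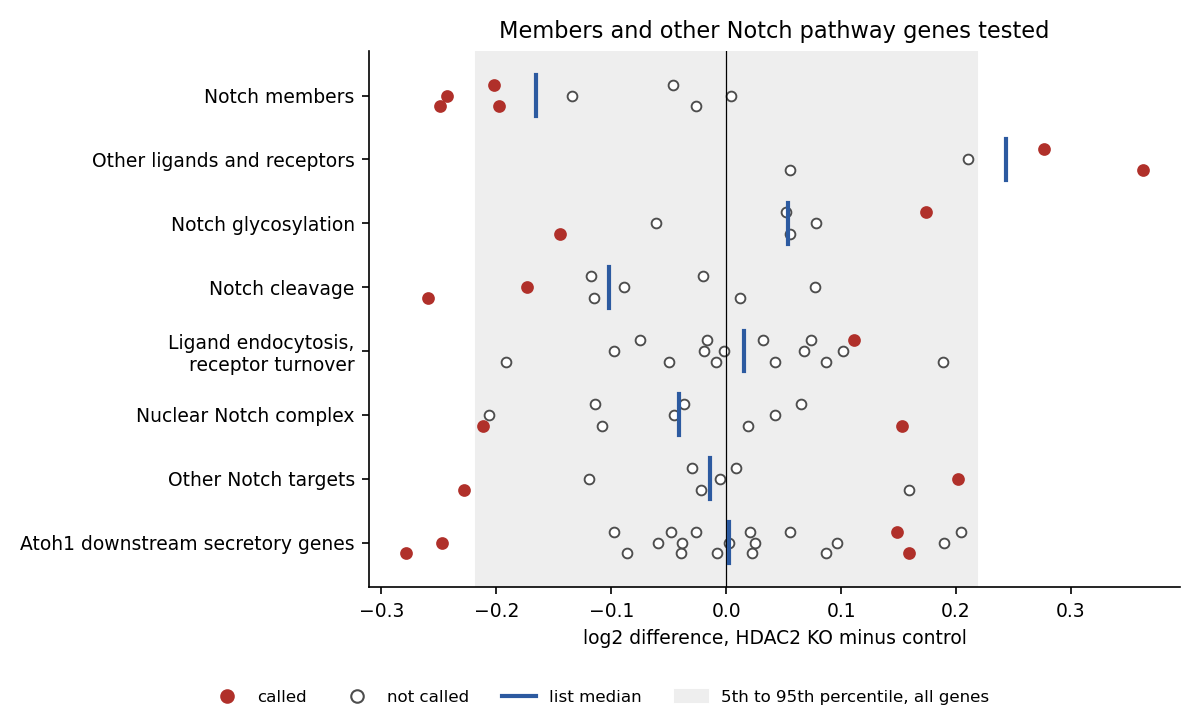
Log2 difference, HDAC2 KO minus control, of each pathway gene tested, by role (red, called; open, not called; blue bar, list median; grey band, 5th to 95th percentile over all genes tested). The 8 tested genes named at the start have a median of -0.17, and the 21 genes downstream of Atoh1 spread around 0.

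Markers of other cell types moved with the groups as well. Beside the counts that follow, 8.2% of all genes tested were called lower and 17.9% in either direction. Of 11 endothelial markers tested, 6 fell and 0 rose, with a median of -0.26 and a summed level of 11.29 to 11.37 in control and 11.13 to 11.16 in HDAC2 KO. Vwf fell by 0.60 and Pecam1 by 0.34 (limma adjusted p = 0.00012 and 0.00221), while the endothelial genes Tie1, Sox17 and Robo4 lay below the filter. The fall was not shared by all: 5 were not called. Of these, Kdr and Eng differed by 0.065 and 0.011, and Egfl7, Emcn and Esam by -0.018, -0.11 and -0.12. All 6 B cell markers tested fell, with a median of -0.58 (summed level 11.08 to 11.15 against 10.52 to 10.59). Cd79b fell by 0.70 and Ms4a1 fell by 0.68 (limma adjusted p = 2.02e-05 for each).

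Of 4 T cell markers tested 2 fell: Cd3d fell by 1.37 and Cd3e by 0.26 (limma adjusted p = 6.4e-06 and 0.0447; for Cd3e with a replicate block, adjusted p = 0.0977), and the list's summed level was 10.62 to 10.70 in control and 10.11 to 10.39 in HDAC2 KO. Of 5 genes tested on the macrophage and dendritic cell list 2 fell, Ptprc by 0.80 and Csf1r by 0.29 (summed level 11.93 to 11.98 against 11.55 to 11.61). Ptprc is carried by B and T cells as well, so its fall cannot be assigned to macrophages alone. C1qa, C1qb and C1qc differed by -0.075, -0.17 and -0.065 and were not called (limma adjusted p = 0.177, 0.080 and 0.295). Of 5 adipocyte markers 4 fell and 1 rose, led by Adipoq, which fell by 3.02, and Fabp4, which fell by 2.12 (summed level 12.71 to 12.78 against 11.15 to 11.25). The 1 that rose was Pparg, by 0.35 (limma adjusted p = 0.00854). The part of these cell types in the lower Notch1, Notch2 and Dll1 signals was not tested.

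Other lists did not fall. Of 12 epithelial markers, 2 rose and 0 fell, Krt20 by 0.48 and Cdx2 by 0.20 (limma adjusted p = 9.11e-05 and 0.0036), with a summed level of 16.83 to 16.84 in control and 16.88 to 16.90 in HDAC2 KO. The share called on this list was near the 17.9% of all genes tested. Atoh1 marks secretory epithelial cells, and whether their number differed between the groups was not tested. Of 11 smooth muscle and pericyte markers 4 rose and 0 fell, with Rgs5 higher by 0.61 and Cnn1 by 0.32 (limma adjusted p = 1.62e-05 and 0.000449; summed level 15.55 to 15.58 against 15.72 to 15.74). Fibroblast markers had 1 higher, Col6a2, and 1 lower, Dcn, of 9 (for Col6a2 with a replicate block, limma adjusted p = 0.0518; for Dcn with its probe sets averaged, 0.194; summed level 13.78 to 13.82 against 13.77 to 13.80), and of 5 enteric neuron and glia markers 0 were called by limma (summed level 9.79 to 9.89 against 9.88 to 9.88).

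**Figure D4:**
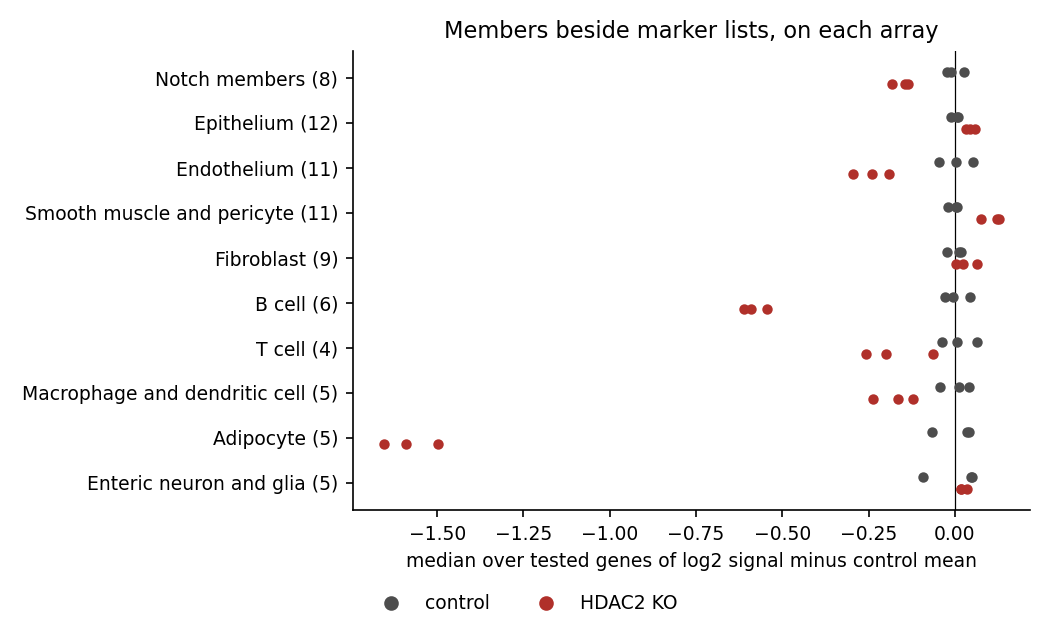
For the 8 Notch pathway genes tested and for each marker list (number of genes tested in brackets), the median over its genes of the log2 signal minus the gene's control mean, on each of the 6 arrays (grey control, red HDAC2 KO). The HDAC2 KO arrays lie lower for the Notch genes (-0.18 to -0.14), endothelium (-0.29 to -0.19) and B cells (-0.61 to -0.54). They also lie lower for T cells (-0.26 to -0.063), the macrophage and dendritic cell list (-0.24 to -0.12) and adipocytes (-1.66 to -1.50). They lie higher for epithelium (0.032 to 0.058) and smooth muscle (0.075 to 0.13).

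Over the 6 arrays, the genes whose signals followed Atoh1 most closely were Pofut1 (Pearson r = 0.999), Creg1 (0.998) and Ccdc117 (0.998). Those nearest Notch1 were Ppp1r9a (0.998), Zfp369 (0.998) and Fcer1g (0.996). With a difference between groups in both genes, 6 arrays give high values readily: 392 of 10639 other genes had r of at least 0.95 with Atoh1, and 222 with Notch1. Pofut1, also a gene of the pathway, read 9.94, 9.95 and 9.92 in control and 9.80, 9.81 and 9.76 in HDAC2 KO.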

How the data were processed

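The deposited table holds log2 signal per probe set, made by the authors with RMA (background correction, quantile normalization, summary per probe set), per the submitters' processing notes, with no version given. The log2 scale was read from the values (2.39 to 14.6). Quantile normalization hides changes in total RNA. Scan batches were not analysed here, and 3 arrays per group limit the precision. Of 45101 probe sets, 64 array controls were left out and 34945 had 1 gene symbol in the platform annotation, giving 18193 genes. The probe set of highest mean stood for each gene, and 10916 genes at or above the 40th percentile were tested in R 4.3.3 by limma 3.58.1 (lmFit, then eBayes; group as sole term; Benjamini-Hochberg adjustment). A further fit tested 45037 probe sets singly. The gene fit was tested on simulated data. Exact permutation tests on 3 against 3 arrays cannot give a p under 0.1.

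The genes and lists were chosen with earlier results of these data known. Named are the 10 genes, every listed pathway gene that was called, up to 2 markers per list by smallest p, Hdac2 and Hdac1, and the 3 genes most correlated with Notch1 and with Atoh1. Uncalled pathway genes with known roles, further markers and the sex-linked genes were named after their values were seen. A list's summed level is the log2 of its summed linear signals over all its genes on the array.

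Replicate numbers are shared by both groups. Deviations from group means correlated between same-numbered arrays with r of 0.212, 0.336 and 0.201, against -0.367 to 0.183 for other pairs of arrays of different groups. The labels do not say that a number marks a shared source. The values given come from the fit without the replicate number, unless a block is named. Alternatives were other signal filters, averaging probe sets, leaving out probe sets that bind several transcripts, other normalizations, variance models and weights, the replicate number as a block, other thresholds and leaving out each array.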

Additional observations from a re-analysis of the deposited data

How the results depend on the processing

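Notch1, Notch2 and Atoh1 were called lower in every alternative that tested them, and Dll1 and Hes1 were lower in all 15 that keep the threshold at 0.05. Jag1, Jag2 and Nrarp, never called, changed sign in some alternatives. The replicate number as a block left 4 of the genes called, 0 of their probe sets and 1943 genes in all, and 14 of the further pathway genes. Among those, Cntn1, Fbxw7 and Creb3l4 lost the call, as given above, and Dtx1 and Neurog3 gained it (adjusted p = 0.0272 and 0.035). Dll1 was not called without the signal filter (-0.20, adjusted p = 0.0581) or at an adjusted p under 0.01 (-0.20, adjusted p = 0.018). Its difference lay between -0.22 and -0.16 when single arrays were left out. Hes1 was called after a further quantile normalization (-0.13), with an intensity trend and robust variances (-0.13), with array weights (-0.16) and at an adjusted p under 0.1 (-0.13). Of the 18 probe sets, 5 were called with the trend and robust variances, 3 with array weights, 3 at an adjusted p under 0.1 and 5 with a filter at the 40th percentile, against 0 otherwise. Over all genes, 3506 were called with array weights, 954 at an adjusted p under 0.01 and 1138 to 2125 without single arrays, against 1952. Of the further pathway genes, 15 were called, against 6 without the signal filter, 29 with array weights, 23 at an adjusted p under 0.1, 5 at 0.01 and 6 to 19 without single arrays. Centring each array moved the median of all genes to 0.0064. Signals under the filter level, as for Notch3 and Dll4, limit what can be seen of these genes.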
